A study of Caenorhabditis elegans with 2 samples.

Results

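The 5 UDP-glycosyltransferase (ugt) genes at which the tagged nuclear hormone receptor NHR-86 was found with the small molecule R24 are ugt-13, ugt-14, ugt-15, ugt-41 and H23N18.4, which RefSeq now names ugt-67. They were chosen by their names from the 189 genes that the authors' deposited table lists as bound with R24 over the solvent DMSO. The listing rests on measured tags, so the pileups, folds and q values below describe the members and were not tested. Chromatin was precipitated with an antibody against GFP from whole animals and sequenced, 1 library in each group. Animals of the R24 group were given 70 µM R24 in DMSO at 1% overnight, and animals of the DMSO group the solvent alone at 1%. Both groups were animals labelled L4 of the strain VL648, in which the integrated transgene wwIs22 expresses nhr-86 fused to GFP from the nhr-86 promoter, with unc-119(+) as its marker in an unc-119(ed3) background. Binding is therefore that of a tagged transgene product, read over all tissues of the worm at once, and the study describes NHR-86 in nuclei of the intestinal epithelium and higher nhr-86 transcript in this strain than in wild type. There were 879943 tags from R24 animals and 2047658 from DMSO animals, so the DMSO library was 2.33 times as deep, and peak calling scaled it down to the R24 depth. Nothing in the labels says how many cultures the libraries came from. Libraries of input DNA and of untagged animals were not used here, and no value below has a replicate check.

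UGT enzymes sit in the membrane of the endoplasmic reticulum and transfer a sugar from a UDP-sugar to small lipophilic molecules. The conjugates are more soluble in water, and transporters then move them out of the cell, so the family forms the second step of xenobiotic detoxification after oxidation by cytochrome P450 enzymes. In C. elegans the family is large, lies in part in runs of neighbouring copies, and many members are transcribed in the intestine and respond to foreign compounds. NHR-86 belongs to the nuclear hormone receptors, transcription factors whose activity can be set by small lipophilic ligands. The comparison addresses where the receptor is found more often in animals given R24 than in animals given DMSO.

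Each of the 5 genes was joined to a peak of its own, and all 5 peaks were on chromosome V (ce10 coordinates throughout), where the genes lie, as the join required. The joins of ugt-15 and H23N18.4 rest on the decimals of a value and the chromosome alone, as described further below. The peak of ugt-15 spanned chrV:12826192-12828039 with its summit at 12827497. The peak of H23N18.4 lay at chrV:4900998-4901398 with its summit at 4901201, that of ugt-14 at chrV:4906127-4906471 with its summit at 4906212, and that of ugt-13 at chrV:4908620-4908967 with its summit at 4908741. The peak of ugt-41 lay at chrV:7163397-7163719 with its summit at 7163568. In the peak list, the pileup is the number of R24 tags, each extended to the fragment length of 296 bp, that cover the summit. The background is the number of DMSO tags expected there after scaling to the R24 depth, and the fold enrichment is the pileup plus 1 over the background plus 1.

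The ugt-15 peak stood apart from the other members in the number of R24 tags. It had a pileup of 53 tags with R24 (exact Poisson interval at 95%, 39.7 to 69.3) over a DMSO background of 3.87 tags, a fold of 11.1. H23N18.4 had 24 tags with R24 (15.4 to 35.7) over a DMSO background of 3.44, a fold of 5.63. The pileup interval of ugt-15 thus lay above that of H23N18.4, the next highest member. The ugt-41 peak had 21 tags with R24 (12.999 to 32.1) over a DMSO background of 4.45, a fold of 4.04. At ugt-13 there were 20 tags with R24 (12.2 to 30.9) over a DMSO background of 2.43, a fold of 6.12. The lowest member, ugt-14, had 18 tags with R24 (10.7 to 28.4) over a DMSO background of 4.73, a fold of 3.32. The pileup intervals of these 4 genes overlapped one another, and differences among them were not tested. All intervals cover counting error only and none covers the spread between animals or cultures.

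**Figure D1:**
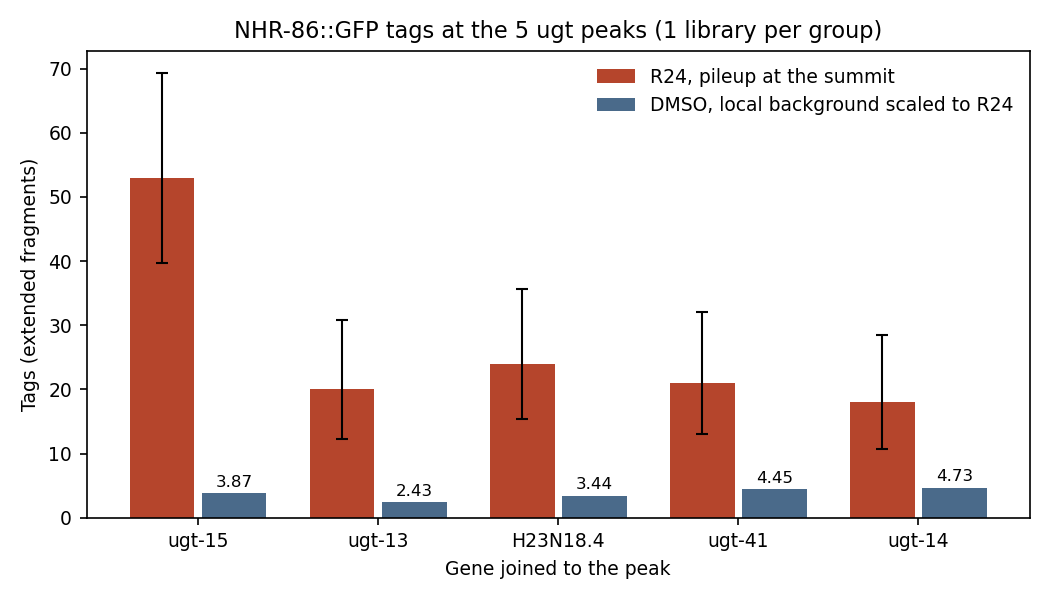
Tags at the 5 ugt peaks (y axis, extended fragments over the summit), with the R24 pileup as red bars and the scaled DMSO background as blue bars with their values, 1 library per group. Error bars are exact Poisson intervals at 95% on the pileup. The ugt-15 bar reaches 53 tags with an interval of 39.7 to 69.3, above the intervals of the other genes, whose bars run from 18 to 24 tags.

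The order of the members by fold was not their order by pileup. H23N18.4 had 4 tags more than ugt-13 with R24, yet its fold was the lower one, because its DMSO background was 3.44 tags against 2.43 at ugt-13. With the pileup interval carried over and the background taken as fixed, the fold of ugt-15 ran from 8.36 to 14.4, that of ugt-13 from 3.85 to 9.30, that of H23N18.4 from 3.69 to 8.27, that of ugt-41 from 2.57 to 6.07 and that of ugt-14 from 2.04 to 5.14. The interval of ugt-15 overlapped that of ugt-13 and each further interval overlapped the next, which does not show that neighbours in this order were alike. The intervals of ugt-15 and H23N18.4 did not overlap.

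The DMSO signal behind each background could be read as whole tags. MACS, the peak caller, takes as background the highest of the DMSO densities in windows of the fragment length, 1 kb and 10 kb around the summit, and at all 220 peaks of the list the background equalled a whole number of DMSO tags in one of these windows. At ugt-15 it was set by 9 DMSO tags over the summit itself (exact Poisson interval 4.12 to 17.1), beside 53 tags in the R24 library, which was sequenced less deeply. At H23N18.4 there were 24 R24 tags and 8 DMSO tags over the summit, and at ugt-14 there were 18 R24 tags and 11 DMSO tags. At the remaining members the DMSO tags were sparser over the summit than around it. At ugt-13 the background came from 191 DMSO tags within 10 kb, which leaves at most 5 DMSO tags over the summit against 20 R24 tags. At ugt-41 it came from 35 DMSO tags within 1 kb, which leaves at most 10 over the summit against 21 R24 tags. All 5 summits therefore had more R24 tags than DMSO tags even before scaling. A whole number of tags in the 1 kb window can also be read as a multiple of 10 tags in the 10 kb window, and the limit at the summit is the same in both readings.

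With tags over the summit alone, divided by the depth of each library and without the added 1, R24 exceeded DMSO 13.7-fold at ugt-15 (exact conditional binomial interval at 95%, 6.70 to 31.6), 6.98-fold at H23N18.4 (3.03 to 17.98) and 3.81-fold at ugt-14 (1.70 to 8.92). At their upper limits of DMSO tags, the ratios were 9.31 at ugt-13 (3.39 to 31.7) and 4.89 at ugt-41 (2.20 to 11.6), and fewer DMSO tags would raise both. The intervals of all 5 genes overlapped when counting error in the DMSO library was included, also those of ugt-15 and ugt-14. These intervals hold for a fixed position, and the summits were picked for their R24 tags.

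The ugt-15 peak was also the widest of the members. It was 1848 bp long, or 6.24 times the fragment length, and only 2 of the 220 peaks were longer. Its summit did not lie in the middle, since 1305 bp of the peak were on the left, at lower coordinates, and 542 bp on the right. The other members had peaks of 401 bp (H23N18.4), 348 bp (ugt-13), 345 bp (ugt-14) and 323 bp (ugt-41), beside a median of 359 bp over all peaks. In the peak of ugt-14 the summit lay 85 bp from the left end and 259 bp from the right, whereas at H23N18.4 it was central, with 203 and 197 bp. One tag is allowed per position and strand, which limits a pileup to 592 tags. The members reached from 3.04% (ugt-14) to 8.95% (ugt-15) of that limit, so none was measured near saturation.

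H23N18.4, ugt-14 and ugt-13 formed 1 cluster of 3 peaks within 7970 bp (chrV:4900998-4908967). The summit of ugt-14 was 5011 bp from that of H23N18.4 and 2529 bp from that of ugt-13, and the peaks were separated by 4729 and 2149 bp without a peak. Among 190 clusters and single peaks, with peaks under 10 kb apart placed together, 6 held at least 3 peaks. In the RefSeq gene order (assembly WBcel235, used here for names and order only) the ugt genes of this locus are ugt-11, ugt-9, ugt-10, H23N18.4, ugt-8, ugt-14 and ugt-13, with no other protein-coding gene between them. This run of 7 is the longest run of ugt genes in the annotation. ugt-8, which lies between H23N18.4 and ugt-14, was not in the authors' deposited table, and no separate peak lay between the peaks of its neighbours. On the side of ugt-10, ugt-9 and ugt-11 the next peak of the list was 876 kb away, and on the side beyond ugt-13 it was 109 kb away, at the peak of srr-4 (fold 5.68). A gene without a peak is one at which the R24 library did not pass the threshold over the DMSO library, and how many tags it had is not in the peak list.

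**Figure D2:**
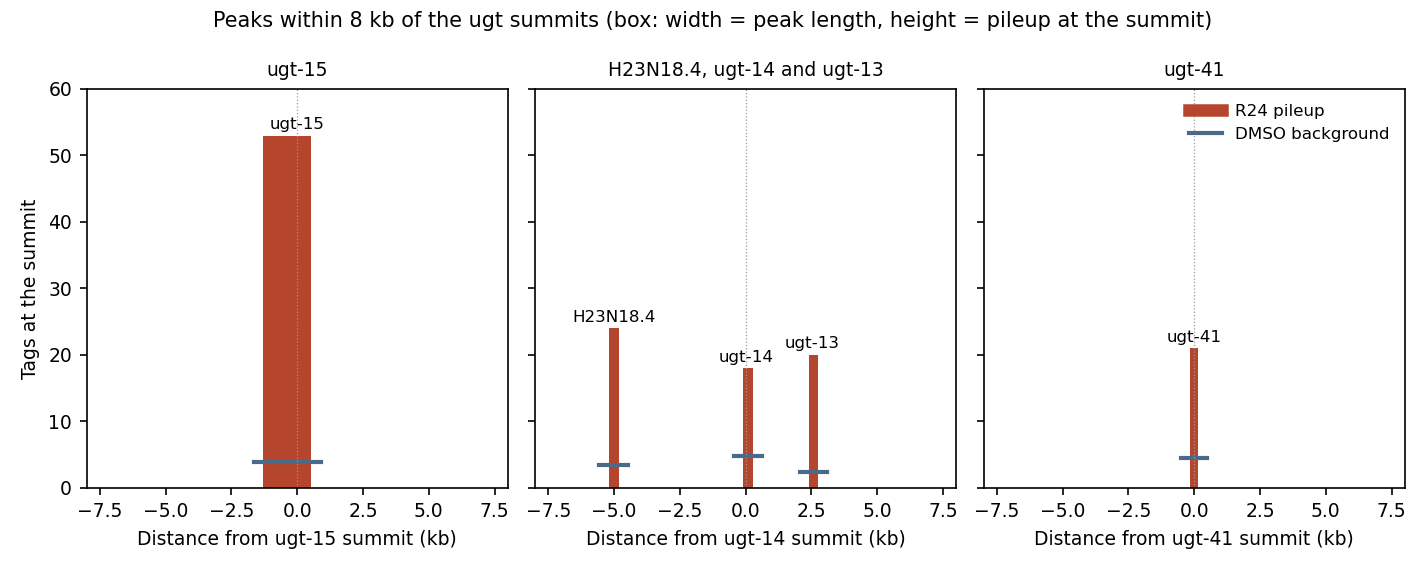
Peaks within 8 kb of the ugt summits, as distance from the summit of ugt-15, ugt-14 or ugt-41 (x axis, kb) against tags at the summit (y axis). Each red box is 1 peak, its width the peak length and its height the R24 pileup at the summit, and blue lines mark the scaled DMSO background. ugt-15 and ugt-41 each have a single peak, of 1848 and 323 bp, and H23N18.4, ugt-14 and ugt-13 have 3 peaks whose summits are 5011 and 2529 bp apart.

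ugt-15 and ugt-41 each had a single peak, although neither gene is far from other ugt genes. ugt-15 ends a run of 3, after ugt-18 and ugt-16, and ugt-41 is separated from ugt-39 and ugt-36 by one gene on each side, the chemoreceptor genes str-204 and srh-83. None of these neighbouring ugt genes was listed. The nearest other peaks to ugt-15 were those of C15C8.7, 81.7 kb away with a pileup of 16 tags and a fold of 3.49, and of T16G1.7, 107 kb away with 20 tags and a fold of 4.31. Both of these peaks had the same background as ugt-15, 9 DMSO tags over the summit. At that background there were 8 peaks in the list, and apart from ugt-15 with 53 tags their pileups ran from 14 to 26 tags and their folds reached 5.55. The fold of ugt-15 therefore came with more R24 tags and not with fewer DMSO tags than at its neighbours. The nearest peaks to ugt-41 were a peak with no joined gene, 67.8 kb away with a fold of 4.05, and that of cyp-35A1, a cytochrome P450 gene, 198 kb away with a fold of 8.78.

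The 3 neighbours did not have higher enrichment than the single peaks. Their folds were 5.63, 3.32 and 6.12 with a mean of 5.02, against 11.1 and 4.04 with a mean of 7.56 at ugt-15 and ugt-41, a difference of -2.54. This difference turned on ugt-15, since against ugt-41 alone it was 0.990. In sum the neighbours had 62 R24 tags (47.5 to 79.5) over a DMSO background of 10.6, and ugt-15 and ugt-41 had 74 R24 tags (58.1 to 92.9) over 8.32. The neighbours' folds spanned from below that of ugt-41 to above it. Peaks of 1 library are not replicates of a locus type, so no test was made.

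Compared with the whole list, the medians of the members differed more in DMSO background than in R24 pileup, while ugt-15 differed more in pileup. Peaks of few tags are called only over a low background, so the backgrounds of the other 4 members are not independent of their pileups. Their pileups had a median of 21 tags against 23 tags for all 220 peaks, and 3 of the 5 lay below that median. Their backgrounds had a median of 3.87 against 5.16 tags, and each of the 5 was under that of all peaks, at 0.471 (ugt-13) to 0.917 (ugt-14) times its value. The median fold of the members was 5.63 against 3.90, with 4 of the 5 above the median of all peaks. By fold, ugt-15 ranked first of 220, ugt-13 14th, H23N18.4 24th, ugt-41 98th and ugt-14 173rd. By pileup ugt-15 ranked 8th, and H23N18.4, ugt-41, ugt-13 and ugt-14 ranked 100th, 134th, 146th and 173rd. The 7 other peaks with at least as many tags as ugt-15 had backgrounds of at least 6.996 tags and folds of at most 8.38. Of the 84 peaks whose pileup lay in the range of the other 4 members, 18 to 24 tags, the median fold was 3.90 and 2 had a fold above that of ugt-13. A fold of at least 5 was reached by 3 of the 5 members, against 38 of all 220 peaks (17.3%). The members were listed on this same contrast, and nothing is read from that count.

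**Figure D3:**
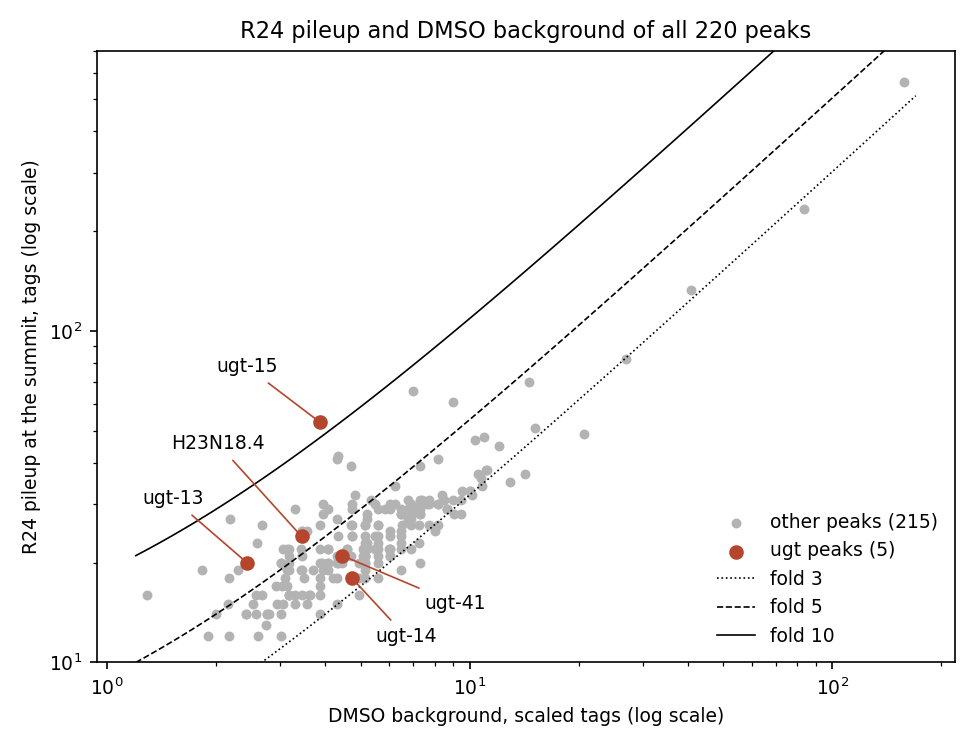
R24 pileup at the summit in tags (y axis, log scale) against DMSO background in scaled tags (x axis, log scale) for all 220 peaks, with the 5 ugt peaks in red and the others in grey. Lines mark folds of 3, 5 and 10. Only ugt-15 lies above the line of fold 10, and the other ugt peaks lie at pileups of 18 to 24 tags, to the left of the median background of 5.16 tags.

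The −log10 q that the authors' peak caller gave did not rank the members quite as the fold did, with H23N18.4 above ugt-13. It was 36.4 at ugt-15, second of the 220 peaks, then 9.21 at H23N18.4, 8.65 at ugt-13, 5.04 at ugt-41 and 3.01 at ugt-14, which ranked 203rd. The q compares the tags of these 2 libraries and not the conditions. The threshold was a −log10 q of 1.30, and the lowest value in the list was 1.77, so ugt-14 was the member closest to the threshold. Values for ugt genes outside the list are not in the peak file.

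The members were 5 of the 67 ugt genes that RefSeq annotates. All 67 are protein-coding, and 42 of them lie on chromosome V, which held 55 of the 220 peaks. Of these 42 genes 5 were listed, and of the 25 on other chromosomes none was. Over all protein-coding genes 153 of 19983 (0.766%) were found in the list. Over annotated genes of every kind the share was 189 of 46926 (0.403%). That 189 counts all listed genes, of which 182 were found in RefSeq, so this share is slightly too high. Nothing is read from the count of members beside these shares. In gene order the 67 genes fell into 46 runs, of which 36 were single genes. Listed genes were in 3 of these runs, and 8 runs of at least 2 ugt genes had no listed member. Of the other families of detoxification genes, the table listed 3 of 74 cyp genes, which oxidize foreign compounds, 2 of 46 gst genes, which conjugate them to glutathione, and 1 of 56 genes of ABC transporters, which export the products. The highest joined peaks of these families had 27 R24 tags (17.8 to 39.3) over a DMSO background of 2.19 at cyp-35A1, a fold of 8.78, 30 over 6.02 at mrp-3, a fold of 4.42, and 22 over 4.58 at gst-15, a fold of 4.12. The pileup interval of cyp-35A1 ended just below the lower bound of ugt-15, 39.7. By fold the 2 peaks were not set apart, as the 8.78 of cyp-35A1 lay within the fold interval of ugt-15, 8.36 to 14.4. No test was made of these differences, as the families were listed on the same contrast.

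Each gene's peak was found through the number that the authors' deposited table gives for the gene. Divided by 1.325, a constant that turned all 189 of these numbers into values of 5 decimals, it equalled the fold of a peak on chromosome V for ugt-13 (6.12), ugt-41 (4.04) and ugt-14 (3.32). For ugt-15 and H23N18.4 it shared all decimals, but not the whole part, with a peak's −log10 q, 3.40 where the peak has 36.4 and 4.21 where the peak has 9.21. The table heads this column as a fold enrichment, but it holds values of more than one kind and was used for the join alone. Joins whose peaks were out of gene order had been left out, so the order of the joined peaks bears on none of these joins. The table gives no positions and no rule of assignment. Gene positions of the ce10 build were not used here, so the distance of a summit from the start of its gene was not measured.

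The size of the folds depended on how the background was set, and ugt-15 stayed first when the pseudocount or the genome size was changed. With the pseudocount of 1 left out its fold was 13.7, and with a pseudocount of 3 it was 8.15, the highest of the members each time. With the lowest background computed for the worm genome instead of the human preset of the file header, only ugt-13 moved, to 5.39, and then lay below H23N18.4. ugt-41 and ugt-14 were the lowest members under each of these settings. With DMSO tags over the summit alone, the 9.31 at ugt-13 was a lower limit. Its place relative to the 13.7 of ugt-15 is therefore not known in that setting.

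**Figure D4:**
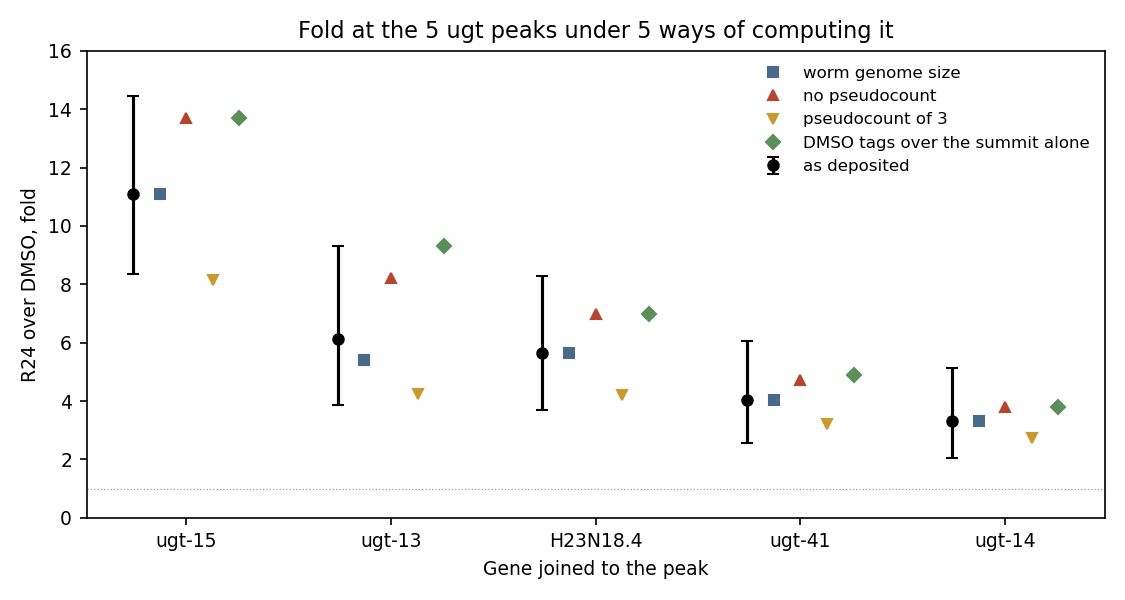
R24 over DMSO fold at the 5 ugt peaks (y axis) as deposited (black, with the interval from the exact Poisson interval of the pileup at 95%) and under 4 other settings, 1 library per group. The values at ugt-15 run from 8.15 to 13.7 and those at ugt-14 from 2.72 to 3.81, and the 2 genes have the highest and lowest plotted value under each setting. For ugt-13 and ugt-41 the value for DMSO tags over the summit alone takes the most DMSO tags the summit can hold. Both are lower limits, so whether ugt-13 lies below ugt-15 in that setting is not known.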

How the data were processed

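Reads were aligned by the authors to ce10 with BWA MEM (0.7.15), sorted with Picard, stripped of low mapping quality with SAMtools and used for peaks in MACS2 (2.1), as the methods and the submitters' processing notes give it. Per the file headers, MACS 2.1.1.20160309 ran with R24 as treatment and DMSO as control, a fragment model of 296 bp, q under 0.05, 1 tag per position and a genome size of 2.7 Gb, the human preset, where that of the worm is 90 Mb. The methods differ, naming no model and a p-value threshold. The header numbers both libraries, and the labels do not.

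The deposited peak list gives the pileup (signal), the fold (a ratio) and −log10 p and −log10 q. The background was recovered from pileup and fold, and gave the −log10 p of each peak again within 0.000322. Low backgrounds were bounded by 0.0965 tags with the human and 2.89 with the worm genome size. DMSO tags were whole within 0.001 beyond rounding, at a DMSO scale of 0.430. The deposited gene table holds a score, used as a join key (tolerance 6e-06), and a −log10 p and −log10 q per gene, which were not used. Of its 189 genes, 182 were found in RefSeq and 146 were joined to a peak in gene order (108 by −log10 q, 16 by fold, 22 by decimals alone), and 3 out of order were left out.

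No test was made, with 1 library per group. Members, gene lists and rules were chosen with earlier results of these data known. Named genes were the 5 members, the joined gene of the nearest peak on each side, ugt genes between or beside members, and the highest peak of each other detoxification family. Alternatives changed the genome size, the pseudocount, the q threshold, the kind of join and the cluster distance. DMSO tags over the summit alone and the comparison without ugt-15 were added after seeing the data. Recovery of backgrounds and of joins by equal −log10 q was tested on simulated data. True joins by equal fold or by decimals alone, the routes of all 5 members, were not simulated. Python 3.11.15, SciPy 1.17.1 and pandas 2.3.3 were used.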

Additional observations from a re-analysis of the deposited data

How the results depend on the processing

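Alternatives numbered 38, of which 32 kept the direction and stayed within counting error of the deposited value, or close to the count. Some of the 32 could not have moved, so their number is no measure of robustness. Worm genome size left the fold of every member but ugt-13 unchanged. At ugt-15, H23N18.4 and ugt-14, DMSO tags over the summit alone repeated the value without a pseudocount. The 32 also include the median fold with joins by full equality, given below. With a pseudocount of 3 the fold of ugt-15 was 8.15, just under its interval. With DMSO tags over the summit alone the fold of ugt-13 was at least 9.31, just over its interval, since at most 5 tags replaced the density of a 10 kb window. The difference in mean fold between the neighbours and the single peaks was -2.54. It ran from -2.87 to -2.58 with another genome size, no pseudocount, sums before the ratio or DMSO tags over the summit alone. The sums had 1 added for each peak, and the summit tags were the most that ugt-13 and ugt-41 can hold. Without ugt-15 the difference was 0.990, of the opposite sign. With joins by full equality of values alone, 3 members kept a peak, ugt-13, ugt-41 and ugt-14, with a median fold of 4.04 in place of 5.63, so the ugt-15 and H23N18.4 peaks rest on decimals and the chromosome alone. With peaks joined under 2 kb or under 1 kb apart, the cluster fell to 1 peak each. Alternatives on promoter windows and protein identity were not run, as no sequences were used here. Summits held 18 to 53 tags in 1 library, and the spread between animals was not measured. No paired analysis was possible because each group had 1 library.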
